A study of Mus musculus with 11 samples.

Results

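The platelet-derived growth factor (PDGF) ligands and receptors were examined at the transcript level in HL-1 cells, an established line of beating mouse atrial cardiomyocytes derived from an atrial tumour lineage. The family was taken as 6 genes, and their probes were found by gene symbol: the ligand genes Pdgfa, Pdgfb, Pdgfc and Pdgfd and the receptor genes Pdgfra and Pdgfrb. All 6 had a probe, 7 in all because Pdgfb had 2, among 16593 genes and 25697 probes on the array. The arrays came from 4 flasks of cells treated with TGF-β2 at 10 ng/mL, 3 flasks treated with PDGF-BB at 100 ng/mL and 4 control flasks with no growth factor. All flasks held the same line and were kept for 23 h. The growth factors were dissolved in medium without serum or antibiotics, and the methods do not state the medium of the control flasks. Each array was hybridized with biotinylated cRNA amplified from the total RNA of 1 flask. A further PDGF-BB-treated flask, described by the study as an outlier, is not analysed here, so the spread of that group is over the flasks that remained. All flasks are of 1 tumour-derived line, so p-values describe the spread between flasks of HL-1 cells and not between hearts.

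PDGFs are dimers of disulphide-linked chains that act on cells bearing receptor tyrosine kinases. The A and B chains are secreted in active form after intracellular cleavage, whereas the C and D chains carry an N-terminal CUB domain that proteases remove outside the cell. The α receptor, from Pdgfra, binds A, B and C chains, and the β receptor, from Pdgfrb, binds mainly B and D chains, so PDGF-BB, the ligand added to the flasks, is a ligand of both. In the heart, Pdgfra is best known as a marker of interstitial fibroblasts and their progenitors and Pdgfrb as a marker of pericytes and vascular smooth muscle, while endothelium and platelets are well-known sources of the B chain.

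Pdgfa was the 1 member found on every array, and neither receptor was found on any array. Illumina's detection p-value compares a probe's signal with that of the negative control beads of the same array, and a probe was taken as detected at a value under 0.05. By this measure the Pdgfa probe was detected on 11 of 11 arrays, 1 of the 2 Pdgfb probes on 4, the Pdgfc probe on 1, and the second Pdgfb probe and those of Pdgfd, Pdgfra and Pdgfrb on 0. Over the whole array, 38.7% of probes were detected on all 11 arrays and 40.1% on 0. Each array detected between 11401 and 12455 probes, its mean signal lay between 451 and 846, and the weakest signal that passed detection lay between 30.6 and 39.7. These are bulk measurements, in which fewer cells of a type and less RNA per cell cannot be told apart.

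The ligand gene Pdgfa encodes the A chain, the subunit of PDGF-AA. RefSeq places the gene at chr5:138976014-139000792 in the mouse assembly GRCm38.p6, and its transcript was read by the probe ILMN_2424721. The place of the probes within their transcripts is not given in the sources used here. The non-normalized signal of Pdgfa was 2057, 1411, 2183 and 2368 in TGF-β2-treated flasks 1 to 4, 1042, 2089 and 1798 in PDGF-BB-treated flasks 1 to 3, and 2360.2, 1646, 1772 and 1929 in control flasks 1 to 4. The lowest of these came from PDGF-BB-treated flask 1, whose array also had the lowest mean signal of the series, 451. The detection p-value of Pdgfa was 0 on every array. Between 21 and 36 beads carried the probe on each array, and the standard error over beads was 3.05% to 6.72% of the signal.

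After the authors' normalization the Pdgfa signals drew closer together, and the 3 groups overlapped. The normalized signal was 2248, 1882, 1567 and 2293 in TGF-β2-treated flasks 1 to 4, 1590.2, 1939 and 1724 in PDGF-BB-treated flasks 1 to 3, and 2268, 1891, 1576 and 1708 in control flasks 1 to 4. The group averages were 1998 ± 341 in TGF-β2-treated cells (SD, n = 4), 1751 ± 176 in PDGF-BB-treated cells (SD, n = 3) and 1861 ± 301 in control cells (SD, n = 4). Over all 11 arrays the SD was 14.9% of the mean after normalization and 21.5% before it. The standard error of the bead mean on 1 array was 3.05% to 6.72% of the non-normalized signal.

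**Figure D1:**
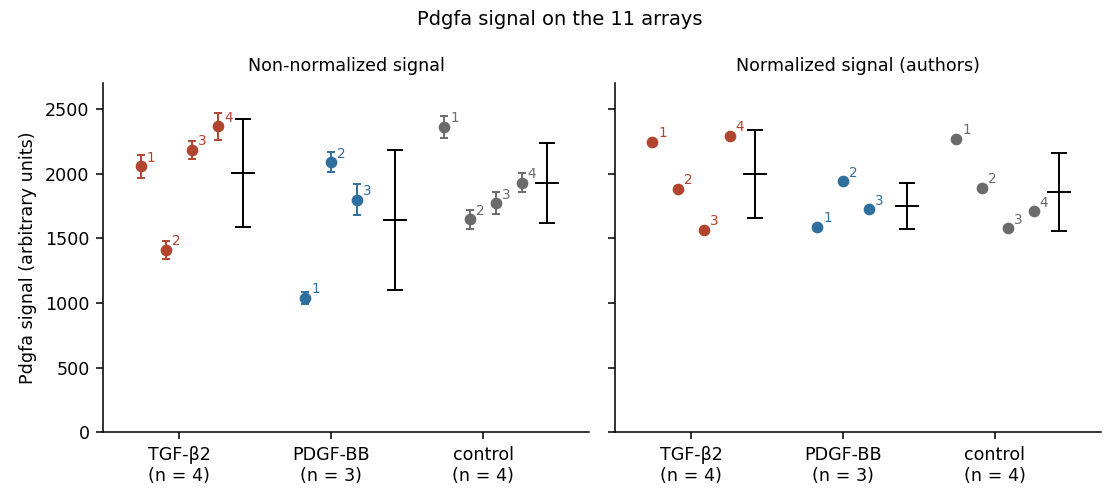
Pdgfa signal (arbitrary units, linear axis from 0) on each array, with the non-normalized signal at left and the authors' normalized signal at right, for TGF-β2-treated (n = 4), PDGF-BB-treated (n = 3) and control cells (n = 4). Coloured points are flasks labelled by replicate number, coloured bars are the standard error over beads, and the black mark and bar are the group mean and SD. PDGF-BB-treated flask 1 is the lowest before normalization, at 1042, and the groups overlap in both panels.

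In TGF-β2-treated and control flasks of the same number, the normalized Pdgfa signals lay close together in 3 of 4 pairs. The TGF-β2-treated minus the control flask was -20.1, -9.13 and -8.28 units in pairs 1, 2 and 3. In pair 4 it was 585 units, which is a difference of 0.43 on the log2 scale. Same-numbered flasks of these groups deviated together across all tested probes, with correlations between 0.191 and 0.504 in their deviations from the group means. Their arrays also lay side by side on the same chip. The numbers did not tie the PDGF-BB-treated flasks to the others in the same way. Their same-number correlations lay between -0.442 and 0.203 against control flasks and between -0.328 and 0.328 against TGF-β2-treated flasks. PDGF-BB-treated flasks 2 and 3 lay beside flasks 3 and 4 of the other groups on the second of 2 array chips. Matched by place, PDGF-BB-treated flasks 1, 2 and 3 had correlations of -0.138, 0.243 and 0.0533 against control flasks. Against TGF-β2-treated flasks these were 0.182, 0.340 and 0.0293.

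Pdgfa did not differ between groups by more than the spread between flasks. Differences were estimated with limma on background-corrected, quantile-normalized log2 signals, over the 12894 probes detected on at least 3 arrays. TGF-β2-treated cells stood 0.10 above control cells on the log2 scale (SE 0.16, 95% confidence interval -0.25 to 0.46, limma adjusted p = 1.0), a ratio of 1.07 with an interval from 0.838 to 1.37. PDGF-BB-treated cells gave a difference from control cells of -0.08 (SE 0.18, interval -0.46 to 0.31, limma adjusted p = 1.0), a ratio of 0.948 with an interval from 0.726 to 1.24. TGF-β2-treated cells stood 0.18 above PDGF-BB-treated cells (SE 0.18, interval -0.21 to 0.56, limma adjusted p = 1.0), a ratio of 1.13 with an interval from 0.867 to 1.48. Changes of Pdgfa within these intervals could not be told from none with these flasks.

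No member was called in any comparison. Across all 12894 probes, an adjusted p under 0.05 was reached by 0% in each comparison, and an unadjusted p under 0.05 by 2.02% with TGF-β2 against control, 3.2% with PDGF-BB against control and 5.13% with TGF-β2 against PDGF-BB. Of the 2 member probes tested, 0 had an unadjusted p under 0.05.

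The arrays lay on 2 chips, and the Pdgfa differences were also estimated within each. On chip 1 (TGF-β2-treated flasks 1 and 2, PDGF-BB-treated flask 1, control flasks 1 and 2) the log2 difference was -0.01 for TGF-β2-treated against control cells, -0.37 for PDGF-BB-treated against control cells and 0.36 between the treated groups. On chip 2 (TGF-β2-treated flasks 3 and 4, PDGF-BB-treated flasks 2 and 3, control flasks 3 and 4) it was 0.21 for TGF-β2-treated against control cells, 0.15 for PDGF-BB-treated against control cells and 0.06 between the treated groups. When arrays were left out singly, TGF-β2 against control ranged from 0.03, without TGF-β2-treated flask 4, to 0.21, without TGF-β2-treated flask 3. PDGF-BB against control ranged from -0.15, without PDGF-BB-treated flask 2, to 0.02, without control flask 1.

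Pdgfb encodes the B chain, the subunit of the added PDGF-BB and the cellular counterpart of the viral sis oncogene. RefSeq places the gene at chr15:79995865-80024614. The probe ILMN_2618714 gave signals near the detection limit in each group. Its non-normalized signal was 12.2, 39.7, 46.5 and 33.8 in TGF-β2-treated flasks 1 to 4, 26.1, 13.4 and 42.1 in PDGF-BB-treated flasks 1 to 3, and 21.8, 17.0, 26.2 and 44.0 in control flasks 1 to 4. The detection p-values were 0.218, 0.0464, 0.0338 and 0.0639 in TGF-β2-treated flasks, 0.0752, 0.214 and 0.0326 in PDGF-BB-treated flasks, and 0.114, 0.195, 0.0852 and 0.0363 in control flasks. The probe was thus detected in TGF-β2-treated flasks 2 and 3, PDGF-BB-treated flask 3 and control flask 4, at least 1 flask of each group. Its bead error was 24.1% to 65.0% of the signal, against 3.05% to 6.72% for Pdgfa.

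The groups overlapped for this Pdgfb probe as well. On the log2 scale it averaged 5.61 ± 0.31 in TGF-β2-treated cells (SD, n = 4), 5.58 ± 0.34 in PDGF-BB-treated cells (SD, n = 3) and 5.50 ± 0.21 in control cells (SD, n = 4). The difference from control cells was 0.12 with TGF-β2 (interval -0.30 to 0.53) and 0.09 with PDGF-BB (interval -0.36 to 0.54), and that between the treated groups was 0.03 (interval -0.42 to 0.48), each with a limma adjusted p of 1.0. Within chips 1 and 2 these differences were 0.20 and 0.04 with TGF-β2, 0.27 and -0.07 with PDGF-BB, and -0.07 and 0.11 between the treated groups. Because the offset added to dim signals shrinks their differences on the log2 scale, these intervals understate what a weak transcript could have changed by.

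The second Pdgfb probe, ILMN_2726543, was not well above background on any array, with a lowest detection p-value of 0.168. Its signal ranged from -9.94 to 11.5 in TGF-β2-treated flasks, from -4.75 to 4.03 in PDGF-BB-treated flasks and from -14.3 to 17.9 in control flasks. Negative values arise because the deposited signals have the array's background subtracted. The 2 Pdgfb probes therefore disagreed on the 4 arrays where the first was detected.

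**Figure D2:**
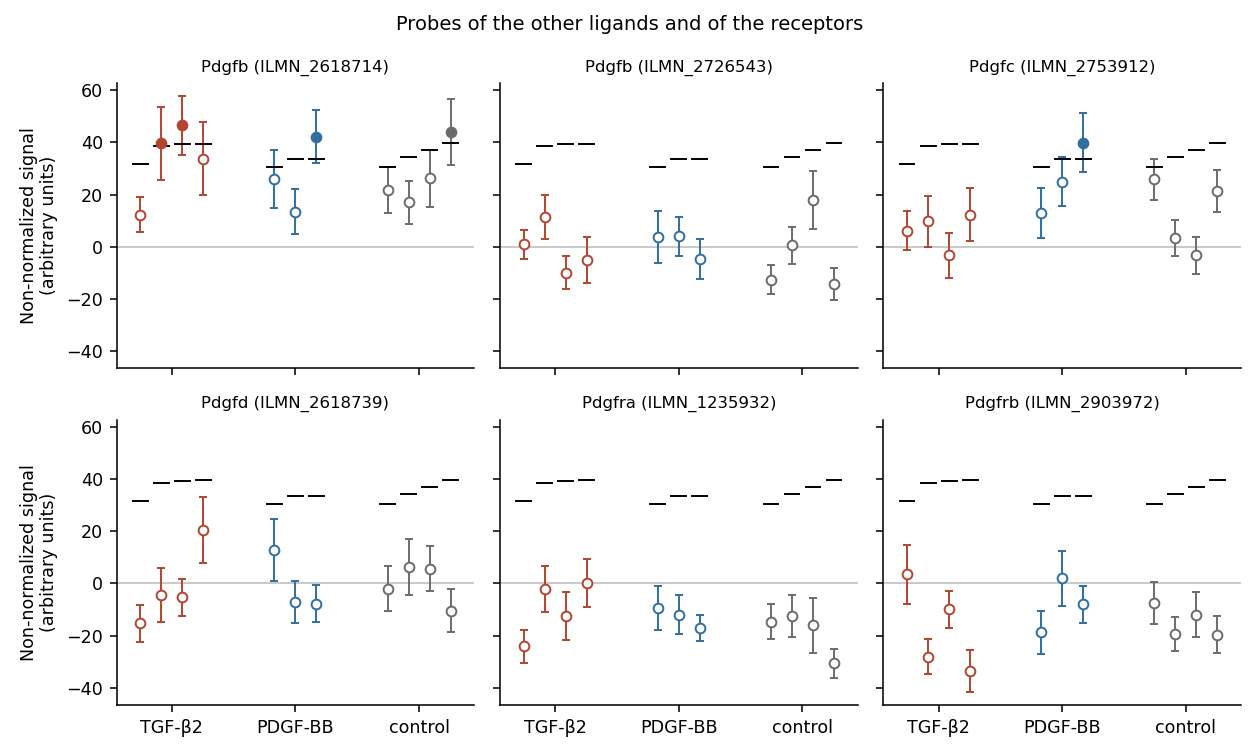
Non-normalized signal (arbitrary units, background-subtracted) of the 6 other member probes in TGF-β2-treated (red), PDGF-BB-treated (blue) and control (grey) flasks, in replicate order from left to right, with the standard error over beads. Filled points are detected at a p-value under 0.05, open points are not, and each black dash is the weakest detected signal of that array (30.6 to 39.7). Filled points appear for 1 Pdgfb probe on 4 arrays and for Pdgfc on 1, and both receptor probes lie mostly below 0.

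Pdgfc, at chr3:81036416-81214040, encodes the C chain, a CUB-domain ligand of the α receptor. Its signal was 6.21, 9.69, -3.30 and 12.3 in TGF-β2-treated flasks 1 to 4, 13.0, 24.99 and 39.9 in PDGF-BB-treated flasks 1 to 3, and 25.8, 3.41, -3.25 and 21.5 in control flasks 1 to 4. It was detected in PDGF-BB-treated flask 3 alone, at a detection p-value of 0.0326, and so did not enter the main test. All 3 PDGF-BB-treated flasks were above all 4 TGF-β2-treated flasks, and the control flasks overlapped both groups. It was the 1 member probe whose groups did not overlap. On the normalized log2 scale, 2.03% of all 25697 probes were likewise lower in every TGF-β2-treated flask than in every PDGF-BB-treated flask, and 2.96% were higher. When all probes were fitted with no filter, the limma unadjusted p for Pdgfc between the treated groups was 0.0239 and the limma adjusted p was 1.0. No ratio is given because the probe was not well above background on 10 of 11 arrays.

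Pdgfd, at chr9:6168363-6534284, encodes the D chain, a ligand of the β receptor. Its signal was -15.3, -4.46, -5.29 and 20.4 in TGF-β2-treated flasks 1 to 4, 12.7, -7.04 and -7.82 in PDGF-BB-treated flasks 1 to 3, and -2.06, 6.29, 5.60 and -10.4 in control flasks 1 to 4. Its lowest detection p-value was 0.154, in TGF-β2-treated flask 4, and 10 of its 11 signals lay within 2 bead standard errors of 0.

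Pdgfra, at chr5:75151322-75198206, encodes the α receptor, and its probe was not well above background on any array. The signal was -24.1, -2.16, -12.4 and 0.103 in TGF-β2-treated flasks 1 to 4, -9.33, -12.0 and -17.1 in PDGF-BB-treated flasks 1 to 3, and -14.6, -12.5, -16.0 and -30.7 in control flasks 1 to 4. The lowest detection p-value was 0.460, and 10 of 11 signals were below 0. The highest of these signals, 0.103, compares with 30.6 for the weakest signal that passed detection on any array.

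Pdgfrb, at chr18:61045127-61085067, encodes the β receptor, the main receptor for the B chain. Its signal was 3.45, -28.1, -9.85 and -33.6 in TGF-β2-treated flasks 1 to 4, -18.7, 2.005 and -8.03 in PDGF-BB-treated flasks 1 to 3, and -7.35, -19.5, -11.9 and -19.6 in control flasks 1 to 4. The lowest detection p-value was 0.381, and 9 of 11 signals were below 0. With 1 probe for each receptor, a transcript form that the probe does not bind would not be seen, and receptor protein was not measured on these arrays. Fitted with no filter, both receptor probes had limma adjusted p-values of 1.0 in all 3 comparisons.

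**Figure D3:**
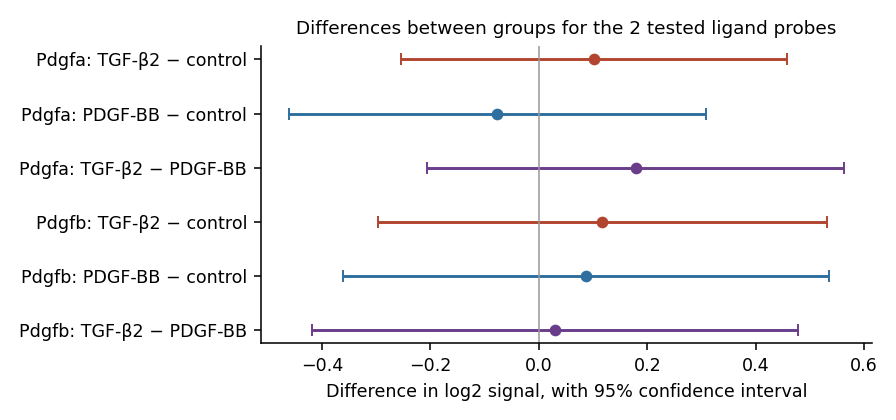
Differences in log2 signal between groups for the 2 member probes that were tested (Pdgfa, ILMN_2424721, and Pdgfb, ILMN_2618714), each point being the limma estimate and each bar its 95% confidence interval. All 6 intervals include 0, and the estimates run from -0.08 to 0.18.

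Cell type markers set the family in context. Of 15 cardiomyocyte markers, 14 were detected on all 11 arrays, among them Myl7, an atrial myosin light chain, and Nppa, the atrial natriuretic peptide gene, and Ryr2, the cardiac ryanodine receptor, was detected on 0. Of 11 fibroblast markers, which mark cells that normally bear Pdgfra, 0 were detected on all arrays and 9 on no array, including Col1a1 and Dcn. The exceptions were Col3a1, a fibrillar collagen gene, on 2 arrays, and Tcf21, a fibroblast transcription factor, on 1. Of 12 pericyte and smooth muscle markers, 5 were detected on no array (Rgs5, Kcnj8, Myh11, Cnn1 and Anpep), while Acta2, Des, Tagln and Mcam were on all 11. Cspg4, a pericyte proteoglycan, was on 6 arrays, and Abcc9 and Notch3 were on 2 each. Which cells gave the signals of these pericyte and smooth muscle markers was not tested. Of 9 endothelial markers, 0 were detected on all arrays and 5 on no array, including Cdh5 and Vwf, while Pecam1 and Kdr were on 6 arrays, Eng on 5 and Esam on 3. Of 9 leukocyte and platelet markers, 1 (Itga2b) was detected on all arrays, Pf4 was on 4 arrays, and 4 markers were on no array.

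The molecules that process or bind PDGF chains were in part present. Genes were listed by role, and each entered with its probe of highest mean signal. Of 9 genes for ligand processing and binding, 5 were detected on all arrays (Furin, Pcsk7, St14, Sparc and Nrp1). Another 3 (Plat, Plau and Lrp1) were detected on 0. Plat encodes tissue plasminogen activator, which cleaves the C chain, and Plau encodes urokinase, which cleaves the D chain. St14, a further protease gene of the list, had a normalized signal that averaged 97.3 over the 11 arrays. Furin, a convertase that cleaves the A and B chains inside the cell, averaged 4170 ± 849 in TGF-β2-treated cells (SD, n = 4), 3796 ± 163 in PDGF-BB-treated cells (SD, n = 3) and 3853 ± 930 in control cells (SD, n = 4). Sparc, a matrix protein that binds PDGF, averaged 8839 ± 1420 in TGF-β2-treated cells, 9027 ± 1100 in PDGF-BB-treated cells and 8561 ± 815 in control cells. Nrp1, a co-receptor for several growth factors, averaged 3010.3 ± 489.9 in TGF-β2-treated cells, 1994 ± 396 in PDGF-BB-treated cells and 2306 ± 509 in control cells. The Nrp1 difference between the treated groups was 0.60 on the log2 scale (SE 0.21, unadjusted p = 0.0129, limma adjusted p = 0.780), and that between TGF-β2-treated and control cells was 0.39 (SE 0.19, unadjusted p = 0.0596, limma adjusted p = 1.0).

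Most of the proteins that dock on an activated PDGF receptor had a detected transcript. Of 21 adaptors and direct effectors, 13 were detected on all arrays and 4 on 0. Those 4 were Plcg1, Fyn, Yes1 and Stat5b, a phospholipase, 2 Src-family kinases and a STAT factor. Over the array, 38.7% of probes were detected on all 11 arrays. That share is per probe, whereas listed genes entered by their brightest probe, so it is not a like background for these counts. Ptpn11, the phosphatase SHP2, had the highest mean signal of the list, at 6747 ± 846 in TGF-β2-treated cells (SD, n = 4), 6501 ± 1485 in PDGF-BB-treated cells (SD, n = 3) and 6176 ± 743 in control cells (SD, n = 4). Rasa1, the Ras GTPase-activating protein that binds the β receptor, averaged 968 ± 229 in TGF-β2-treated cells, 565 ± 122 in PDGF-BB-treated cells and 870.4 ± 302.2 in control cells. Its log2 difference was -0.57 for PDGF-BB-treated against control cells (SE 0.26, unadjusted p = 0.0484, limma adjusted p = 1.0) and 0.76 between the treated groups (SE 0.26, unadjusted p = 0.0130, limma adjusted p = 0.780). Pik3r1, the p85α subunit of PI3-kinase, had the lowest p of the list between TGF-β2-treated and control cells, with a difference of 0.25 (SE 0.16, unadjusted p = 0.134, limma adjusted p = 1.0).

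Among 8 genes that act in receptor dephosphorylation, internalization and sorting, 4 were detected on all arrays and 1 (Ptprj) on 0. Ptpn1, a tyrosine phosphatase that acts on PDGF receptors, averaged 1529 ± 202 in TGF-β2-treated cells (SD, n = 4), 1298 ± 209 in PDGF-BB-treated cells (SD, n = 3) and 1237 ± 119 in control cells (SD, n = 4). Its difference between TGF-β2-treated and control cells was 0.30 (SE 0.15, unadjusted p = 0.0681, limma adjusted p = 1.0). Of 8 genes of the downstream kinase cascade, 6 were detected on all arrays and 0 on none. Pdpk1, the kinase that activates AKT, averaged 528 ± 143 in TGF-β2-treated cells, 304 ± 26.1 in PDGF-BB-treated cells and 401 ± 143 in control cells, with a log2 difference of 0.73 between the treated groups (SE 0.26, unadjusted p = 0.0158, limma adjusted p = 0.808). Akt2, an AKT kinase gene detected on 8 arrays, averaged 40.6 ± 15.3 in TGF-β2-treated cells, 59.6 ± 14.7 in PDGF-BB-treated cells and 35.9 ± 8.63 in control cells. Its log2 difference was 0.46 for PDGF-BB against control (SE 0.20, unadjusted p = 0.0356, limma adjusted p = 1.0) and -0.37 for TGF-β2 against PDGF-BB (SE 0.20, unadjusted p = 0.0799, limma adjusted p = 1.0).

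Genes known to be induced early by PDGF were measured at 23 h, long after their usual peak. Of 23 such genes, 10 were detected on all arrays, among them Fos, Egr1 and Dusp1, and 5 on 0, among them the chemokine genes Ccl2 and Ccl7. Between PDGF-BB-treated and control cells, 8 of the 14 tested genes were above 0 and 6 below, with a median log2 difference of 0.07 against 0.01 over all probes in the fit. Between TGF-β2-treated and control cells, 4 were above 0 and 10 below, with a median of -0.11 against 0.00 over the whole fit. Between the treated groups, 3 were above 0 and 11 below, with a median of -0.16 against -0.02. None of the 14 reached an unadjusted p under 0.05 in any comparison. Egr1, a zinc-finger transcription factor, averaged 1311 ± 656 in TGF-β2-treated cells (SD, n = 4), 1409 ± 301 in PDGF-BB-treated cells (SD, n = 3) and 1699 ± 739 in control cells (SD, n = 4). Dusp1, a phosphatase that turns off MAP kinases, averaged 556 ± 71.6 in TGF-β2-treated cells, 690.3 ± 117.2 in PDGF-BB-treated cells and 671 ± 62.6 in control cells.

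**Figure D4:**
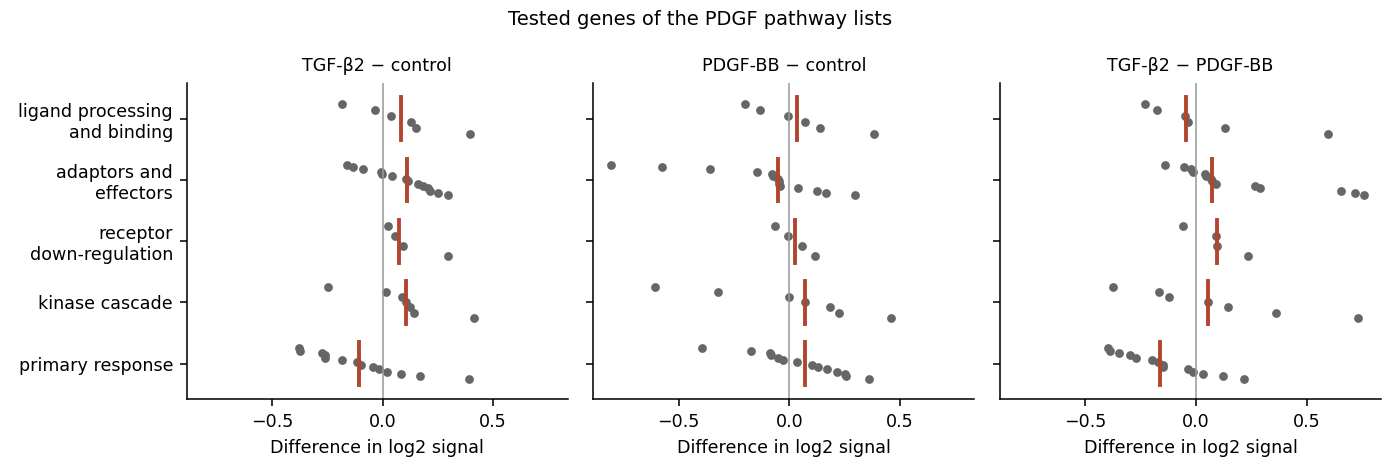
Differences in log2 signal for the tested genes of 5 lists of PDGF pathway genes, with 1 panel for each comparison. Grey points are genes, spread vertically in order of value, and red bars are list medians, which run from -0.16 to 0.11 over the 15 combinations of list and comparison. None of these genes reached an adjusted p under 0.05.

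Of 8 genes of the VEGF family, whose growth factors share the PDGF fold, Vegfa and Vegfb were detected on all arrays and 5 genes on 0, among them the receptor genes Flt1 and Flt4. Vegfa, the main angiogenic ligand, averaged 724 ± 213 in TGF-β2-treated cells (SD, n = 4), 725 ± 127 in PDGF-BB-treated cells (SD, n = 3) and 1024 ± 233 in control cells (SD, n = 4). Its log2 difference from control cells was -0.51 with TGF-β2 (SE 0.22, unadjusted p = 0.0345, limma adjusted p = 1.0) and -0.48 with PDGF-BB (SE 0.23, unadjusted p = 0.0585, limma adjusted p = 1.0), and both comparisons share the control flasks. Kdr, a VEGF receptor gene, was detected on 6 arrays. The 5 genes related to the other class III receptors were Flt3 and ligand genes, since no probe was matched to the receptor genes Kit and Csf1r. Of these 5, Csf1, which encodes macrophage colony-stimulating factor, was detected on all arrays and 3 were on 0.

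Probes whose signal over the 11 arrays was most like that of each tested member were listed as a description. For Pdgfa these included Ercc5, a DNA repair endonuclease (Pearson's r of 0.93), and C1galt1, a glycosyltransferase (0.91). For Pdgfb they were Rnf128, a ubiquitin ligase (0.84), Cpsf4, an mRNA 3′-processing factor (0.82), and Ada, adenosine deaminase (0.81). They are among the highest of 12132 probes compared over the same arrays, with chips and array quality in common.

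The CpG content of the 250 bases before annotated RefSeq starts (GRCm38.p6) was counted as a description. A start was listed for 4 of the 6 members. Pdgfa had 2 listed starts, with 28 and 19 CpG dinucleotides before them. Pdgfc and Pdgfd each had 3 and Pdgfra had 4. Over the array, windows of genes with a probe detected on all 11 arrays had a median of 16, and windows of genes with no probe detected on any array had a median of 4. The windows of Pdgfa and Pdgfra lie inside the annotated gene spans, and that of Pdgfd partly so, and they may therefore be transcribed. The window of Pdgfc, at chr3:81036166-81036415 on the plus strand and next to the gene's first base, is printed as an example of a CpG-poor window, with its 3 CpG dinucleotides in capitals.
Pdgfc: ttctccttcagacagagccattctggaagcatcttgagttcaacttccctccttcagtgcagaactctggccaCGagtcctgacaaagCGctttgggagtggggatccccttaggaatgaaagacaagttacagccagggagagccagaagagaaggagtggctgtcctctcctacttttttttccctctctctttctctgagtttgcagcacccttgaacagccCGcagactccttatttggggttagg

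This window has 50.8% G and C and an observed over expected CpG ratio of 0.187, against 72.4% and 0.871 for the upstream one of the Pdgfa windows. A GC box (GGGCGG on either strand) was found in both Pdgfa windows and in none of the others, in 32.7% of all 32851 windows, in 59.4% of windows of genes detected on all 11 arrays and in 29.9% of windows of genes detected on none. An early growth response element (GCGGGGGCG), an AP-1 element (TGANTCA) and a SMAD element (GTCTAGAC) were in no member window, on either strand, and in 2.57%, 6.75% and 0.167% of all windows. A TATA box (TATAAA) was in the Pdgfd window and in 12.4% of all windows. The GC box and the early growth response element can overlap. A match describes letters in a window and not a bound site.

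**Figure D5:**
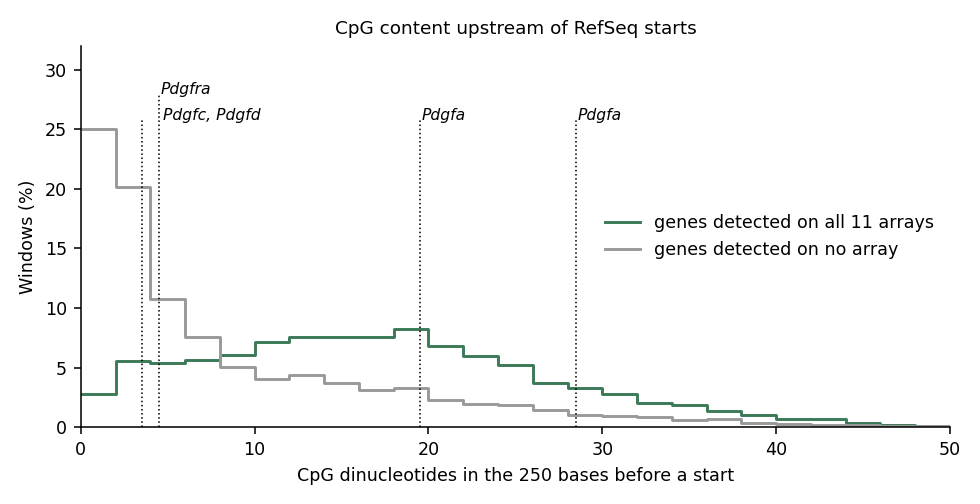
Share of 250-base windows before RefSeq starts (%, vertical axis) by their number of CpG dinucleotides (horizontal axis, bins of 2), for genes with a probe detected on all 11 arrays (green, 7421 windows) and for genes with no probe detected on any array (grey, 5683 windows). Dotted lines mark the member windows, with Pdgfa at 19 and 28, Pdgfc and Pdgfd at 3 and Pdgfra at 4.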

How the data were processed

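RNA of HL-1 cells was measured with Illumina MouseRef-8 Expression Beadchips on 4 TGF-β2, 3 PDGF-BB and 4 control arrays, grouped by their labels. The authors deposited background-subtracted signal intensity, detection p-values and bead statistics per probe, and signal intensity normalized, per the methods, with the Beadstudio cubic spline algorithm. The processing notes name GenomeStudio, with no version. Gene symbols came from the platform annotation and cover 23978 of 25697 probes, with none for 1719.

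From the non-normalized signals, log2 values were computed with neqc of limma 3.58.1 (R 4.3.3), which estimates the background of each array through its detection p-values. An offset of 16 and quantile normalization were used. The 12894 probes detected at a p under 0.05 on at least 3 arrays were fitted with 1 mean per group, and p-values were adjusted by Benjamini-Hochberg over all of them. The fit was tested on simulated data. The simulated arrays varied independently, so they do not show how the fit behaves where same-numbered arrays deviate together. Signals, detection and windows were summarised in Python 3.11.15 with pandas 2.3.3. A median of 34 to 38 beads per probe limits the precision of each signal.

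Same-numbered TGF-β2 and control arrays had correlations of 0.191, 0.400, 0.504 and 0.371 in their deviations from the group means. These same-numbered arrays also lay side by side on the same chip, so a pairing of flasks and array position cannot be told apart. The labels do not say what a number marks, so the main fit held no replicate block. Its intervals and p-values are therefore unpaired. The median SE for TGF-β2 against control was 0.184 in the main fit. It was 0.128 with the replicate block on those 2 groups alone. Alternatives covered background, normalization, filters, array weights, chip, position, the replicate block and leaving out each array. The members and gene lists were chosen with earlier results of these data known. Named genes were all members and, per pathway list, the 3 of highest mean signal and the 2 of lowest p per comparison, of which the text gives a part, plus the 3 probes most like each tested member and the detected genes of marker lists with at most 3 of them. Other genes were named after their values were seen. One of the probes most like Pdgfa is not reported here. Sequences and gene positions are from RefSeq (GRCm38.p6).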

Additional observations from a re-analysis of the deposited data

How the results depend on the processing

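The number of member probes called was 0 in each comparison under every alternative. Under the alternatives, the lowest unadjusted p of Pdgfa or the brighter Pdgfb probe was 0.100, for Pdgfa between the treated groups with array weights, where the limma adjusted p was 0.615. With no filter, which brought in the 5 dimmer probes, the lowest was 0.0239, for Pdgfc between the treated groups, at a limma adjusted p of 1.0. Of 134 log2 differences of Pdgfa and Pdgfb under the alternatives, 121 kept their sign, 13 changed it and 0 passed the test. The 121 include settings that could not move a difference, such as another filter or leaving out an array of the group not compared. The count therefore does not measure how stable the direction was. The cause of the changes of sign was not tested. For Pdgfa, PDGF-BB against control was 0.15 on chip 2 alone and ranged from -0.1515 to 0.0244 when single arrays were left out (0.0244 without control flask 1), and TGF-β2 against control was -0.0076 on chip 1 alone. For Pdgfb, PDGF-BB against control was -0.0729 on chip 2 alone and ranged from -0.0716 to 0.2696 when single arrays were left out, the negative value being without PDGF-BB-treated flask 3, and TGF-β2 against control was -0.0033 with array weights. For Pdgfb between the treated groups, the difference was -0.0209 with no quantile step, -0.2377 with array weights, -0.0747 on chip 1 alone and -0.0175 with the replicate block, and it ranged from -0.15 (without PDGF-BB-treated flask 2) to 0.19 (without PDGF-BB-treated flask 3) when single arrays were left out. With the replicate block, TGF-β2 against control was 0.10 for Pdgfa and 0.12 for Pdgfb. Each block holds 1 array of both groups, so these estimates could not differ from the main ones. When those 2 groups were fitted alone, a fit chosen after the data were seen, only the spread could change. The limma unadjusted p was then 0.433 for Pdgfa and 0.491 for Pdgfb, against 0.548 and 0.552 in the main fit. No call changed. Pdgfb was not tested where detection was required on all 11 arrays or at a p under 0.01.

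The number of member probes detected on every array of a group was 1 in each group, also at a detection p under 0.01, with a normalized signal above 30 and without any single array. Counted as detected on at least 1 array of the group, it was 2 with TGF-β2, 3 with PDGF-BB and 2 in control cells. Depth here is signal over background, and 5 of the 7 member probes, all but those of Pdgfa and the brighter of the Pdgfb probes, were too dim on at least 10 arrays for a difference to be measured.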
